A study of Mus musculus with 20 samples.

Results

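The cytosolic ribosomal protein genes encode the proteins of the ribosome that translates nuclear genes' messages, and their transcripts were followed here in the hippocampus of mice that carried or lacked miR-34a and a cerebral amyloid transgene. Members were taken by a rule on gene symbols that uses no measured value: protein-coding genes whose symbol begins with Rpl or Rps followed by a number, p or a, such as Rplp0 and Rpsa. Of 102 protein-coding symbols spelled that way, 10 Rps6k kinases, 6 genes with pseudogene symbols and Rps19bp1 were left out, which gave 85 members among the 39056 genes counted. They comprised 52 genes of the large (60S) subunit and 33 of the small (40S) subunit. By the minimum set for a member to count as measured, 10 or more counts in 5 or more libraries, 82 were measured, and the same 82 passed the filter for testing. The 3 that did not were Rpl3l, Rpl10l and Rpl39l, which are paralogues known from muscle and testis.

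The 20 libraries came from 20 female C57BL/6 mice, 1 left hippocampus each, in 4 groups of 5. The groups were miR-34a wild type without transgene (WT Non-Tg), miR-34a knockout without transgene (KO Non-Tg), miR-34a wild type with the transgene (WT Tg-SwDI) and miR-34a knockout with the transgene (KO Tg-SwDI). Tg-SwDI mice express human amyloid precursor protein with the Swedish, Dutch and Iowa mutations under the neuronal Thy1 promoter, so the model's transgene expression is neuronal. The knockout is constitutive and affects every cell of the body, so an effect of miR-34a loss in one cell type cannot be told apart from an effect in another. The mice were about a year old, were littermates by the study's methods, and had been through behavioural testing. Single mice are named by the number in their label, and the labels do not say what a number shared between groups means.

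Each ribosome holds one copy of nearly every ribosomal protein, so cells keep the synthesis of these proteins in step with one another and with ribosomal RNA. Much of this control in mammals is translational. The messages begin with a cytosine followed by a run of pyrimidines, the 5′ terminal oligopyrimidine or TOP element, through which the mTOR pathway sets how well they are translated, and a level of mRNA is therefore not a level of ribosomes. In the brain the genes are transcribed in every cell type, and in bulk tissue fewer cells of a type and less RNA per cell cannot be told apart.

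The sequence around the start of transcription was read for members with an entry in the RefSeq promoter table (GRCm38.p6). It held 77 promoters for 65 of the 85 members. Shown are 8 members that were higher in KO Tg-SwDI than in KO Non-Tg mice: the subunit genes Rps26, Rps27, Rpl38, Rpl31, Rpl28 and Rps10, the stalk gene Rplp0 and the paralogue Rps27l. Each run is 80 bases, 60 before the annotated start and 20 from it on, written 5′ to 3′ on the gene's strand. Capitals mark every CTTTC, a core of many TOP starts, and every CGGAAG on either strand (CTTCCG when read on the strand shown), the core to which ETS factors bind. The 2 CGGAAG of Rpl38 adjoin, so their capitals run together.
Rps26 (chr10:128626487-128626566, minus strand): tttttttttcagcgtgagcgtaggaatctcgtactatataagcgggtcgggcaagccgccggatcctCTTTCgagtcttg
Rps27 (chr3:90213629-90213708, minus strand): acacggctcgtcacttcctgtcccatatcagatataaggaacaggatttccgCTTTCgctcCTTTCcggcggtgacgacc
Rpl38 (chr11:114668520-114668599, plus strand): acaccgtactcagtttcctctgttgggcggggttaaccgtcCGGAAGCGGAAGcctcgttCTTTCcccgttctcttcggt
Rpl31 (chr1:39367791-39367870, plus strand): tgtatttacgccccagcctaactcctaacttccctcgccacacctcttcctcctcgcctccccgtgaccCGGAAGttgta
Rpl28 (chr7:4792905-4792984, plus strand): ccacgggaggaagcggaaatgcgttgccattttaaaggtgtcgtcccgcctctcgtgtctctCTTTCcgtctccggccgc
Rps10 (chr17:27635225-27635304, minus strand): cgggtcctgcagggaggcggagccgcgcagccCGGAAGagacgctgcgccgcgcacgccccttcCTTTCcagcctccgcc
Rplp0 (chr5:115559407-115559486, plus strand): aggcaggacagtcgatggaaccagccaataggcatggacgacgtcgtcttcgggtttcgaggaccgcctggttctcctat
Rps27l (chr9:66946026-66946105, plus strand): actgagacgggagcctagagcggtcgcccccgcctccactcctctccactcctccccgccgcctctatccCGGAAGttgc

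The letters CTTTC stood within 50 bases of the annotated start, on the gene's strand, in 38 of the members' 77 promoters (49.4%), against 12.8% of all 32851 promoters in the table. CGGAAG, on either strand and anywhere in the 300 bases, was in 46 of them (59.7%), against 16.9% of all promoters. Of the 30 promoters of members called higher in KO Tg-SwDI than in KO Non-Tg mice, 36.7% held CTTTC and 76.7% CGGAAG, and of the 43 of tested members not called, 60.5% and 51.2%. Rpl31, Rplp0 and Rps27l show no CTTTC in the window printed, and Rpl31 and Rps27l carry a CGGAAG just after the annotated start. These are matches of letters, and annotated starts can lie some bases away from the start a cell uses.

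The lost miRNA has its own sequence to set against these messages, with the seed (bases 2 to 8) in capitals:
mmu-miR-34a-5p (chr4:150068473-150068494, plus strand): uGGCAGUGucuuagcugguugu
A message with the complement of that seed, CACTGCC, in its 3′UTR holds a possible miR-34a site. In the GENCODE M21 transcript taken for each gene, 3 of the 85 members held one, or 3.53%, against 16.2% of 14593 tested genes with a 3′UTR. The members' 3′UTRs had a median length of 87 bases and those of the tested genes 1044, and a longer one has more places for a match. The sites were in Rpl6, Rpl13a and Rps7, and are printed with 10 bases on either side and the match in capitals:
Rpl6 (chr5:121209149-121209175, plus strand): gaggcacataCACTGCCatggctgcct
Rpl13a (chr7:45125627-45125653, minus strand): acacttggagCACTGCCttgctccttc
Rps7 (chr12:28630875-28630901, minus strand): attagaacttCACTGCCctccaacttc

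Counts on genes summed to 19549622 to 21066868 per library. Thy1, whose promoter drives the transgene, had 14341 to 15427 counts in Non-Tg mice. It had 40573 to 48673 counts in WT Tg-SwDI and 51844 to 60265 in KO Tg-SwDI mice, so the Tg-SwDI groups did not overlap. Whether this difference bears on the members was not tested. One library stood apart. KO Tg-SwDI mouse 8 gave 14.6% of its counts to the 13 mitochondrially encoded mRNAs, against 6.94% to 8.76% in the other 19, and had the lowest TMM factor (0.901) and the steepest rise of counts with GC content. It also stood apart in the ribosomal protein genes themselves. The main results that include KO Tg-SwDI mice are therefore given with and without it. Exceptions are the values of single mice and the fits with a covariate. Mouse 8 was set apart partly on the members' own values, so results without it are no independent support for those with it. Levels are CPM, read counts scaled to a common library total, after TMM scaling, a correction for library composition. Differences are log2 fold changes from edgeR's quasi-likelihood test on the raw counts of all 20 libraries, with standard errors. A gene was called at a Benjamini-Hochberg adjusted p under 0.05 over the 16107 genes tested. Nothing in the labels ties mice to litters or days, so the p-values measure the spread between these mice.

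The 85 members together took about 1% of all counts. The most abundant message per length was Rplp1, an acidic protein of the ribosomal stalk that recruits elongation factors, at 669 CPM per kb of mRNA. It was followed by Rps15 (481), Rps27 (367), Rpl41 (339) and Rpl21 (316), all in CPM per kb and averaged over the 20 mice. At the low end of the measured members stood Rpl24 (1.55 CPM per kb), Rps27rt (1.59), Rps27l (12.02), Rpl7l1 (12.4) and Rpl13a (19.2). The values of Rpl24 and Rpl13a are uncertain, since 47.0% and 35.4% of their exonic bases overlap other annotated genes. Of the 85 members 66 averaged more than 100 CPM per kb. The levels per length of Rps15a and Rps20 (22.4 and 21.3 CPM per kb) rest on annotated mRNAs of 5130 and 3706 bases, far longer than those of most members.

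Many members share sequence with processed pseudogenes, and 284 pseudogene rows with ribosomal protein symbols are in the count table. For the median member 31.3% of 100-base windows of its mRNA occur in a transcript of another gene. The share was 98.4% for Rps27, 80.04% for Rpl23a and 79.4% for Rpl3, but 24.1% for Rps26 and 16.7% for Rpl21. How reads that fit several genes were counted is not given in the sources used here, so levels of members with high shares are uncertain.

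Paralogues, which stand in for a core protein in particular tissues, were below their core genes in this tissue. Rpl36al came nearest, at 49.6 CPM per kb against 109 for Rpl36a (45.4%), with 24.5% of its exonic bases overlapping other genes. Rpl22l1, a regulator of splicing beside its ribosomal role, averaged 38.9 CPM per kb against 188 for Rpl22 (20.7%). Rpl7l1 reached 7.34% of Rpl7, Rps27l, a p53-inducible paralogue, 3.28% of Rps27, and Rps27rt, a retrotransposed copy, 0.434% of Rps27. The heart and muscle paralogue Rpl3l had 1 to 10 counts per library against 4659 to 7944 for Rpl3, and Rpl39l had 0 to 4. Rpl10l, the testis copy of the X-linked Rpl10, had 0 counts in 19 libraries and 1 in the other.

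**Figure D1:**
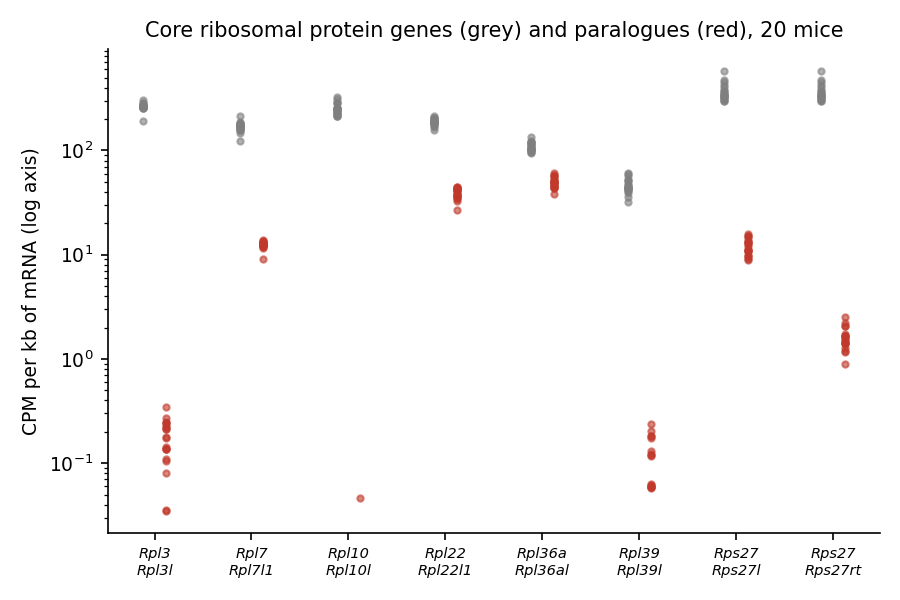
Level of each core ribosomal protein gene (grey) and its paralogue (red) in CPM per kb of mRNA on a log axis, 1 point per mouse and 20 mice per gene. Mice with 0 counts are not drawn, which leaves Rpl10l with 1 point. The paralogues sit below their core genes, from 45.4% of the core level for Rpl36al downward.

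As a summed level, the 85 genes were highest in KO Tg-SwDI mice. The 5 WT Non-Tg mice (2, 3, 4, 6 and 7) lay between 10164 and 11036 CPM, with a mean of 10787 ± 361 (SD, n = 5). The KO Non-Tg mice lay between 10035 and 10891 CPM, with a mean of 10529 ± 347 (SD, n = 5), so the Non-Tg groups overlapped. WT Tg-SwDI mice averaged 11178 ± 710 CPM (SD, n = 5), from 10562 to 12321, the highest being mouse 4. KO Tg-SwDI mice averaged 12065 ± 1045 CPM (SD, n = 5), from 10572 in mouse 8 to 13525 in mouse 3. Without mouse 8 the other 4 averaged 12439 ± 726 CPM (SD, n = 4), and the lowest of them, at 12027, was above all 10 Non-Tg mice and below 1 WT Tg-SwDI mouse.

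**Figure D2:**
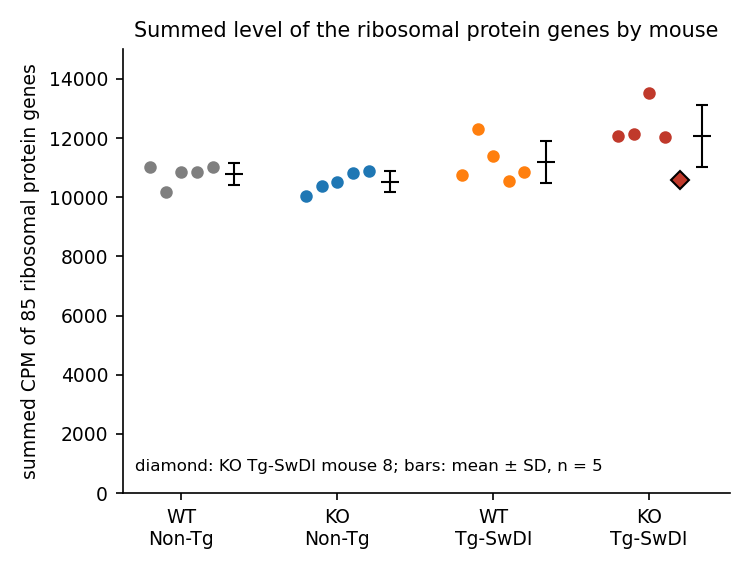
Summed CPM of the 85 ribosomal protein genes in each of the 20 mice, by group, with the mean ± SD of the 5 mice beside the points and the vertical axis starting at 0. KO Tg-SwDI mice reach 13525, and mouse 8 of that group (diamond) sits at 10572, among the Non-Tg mice. That place depends on the TMM scaling: by library size alone mouse 8 is at 9522, the lowest of the 20 mice.

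The summed level hides a split within mouse 8. Of the 82 measured members, 66 were below the mean of the other 4 KO Tg-SwDI mice in log2 CPM and 16 above it, and the median difference was −0.37. It was the lowest mouse of its group for 60 members and the highest of all 20 mice for 13. Among the members farthest above were Rps26 (0.56 higher on the log2 scale), Rpl31 (0.48), Rps27rt (0.41) and Rps27 (0.41). Among those farthest below were Rpl39 (−0.77), Rpl13 (−0.63) and Rpl7 (−0.61). The order of members in this difference followed neither mRNA length (Spearman rho −0.16 over 82 genes), nor GC content (0.05), nor the share of windows found in other genes (0.10) closely. Genes are not independent replicates, and these are descriptions of 1 library.

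**Figure D3:**
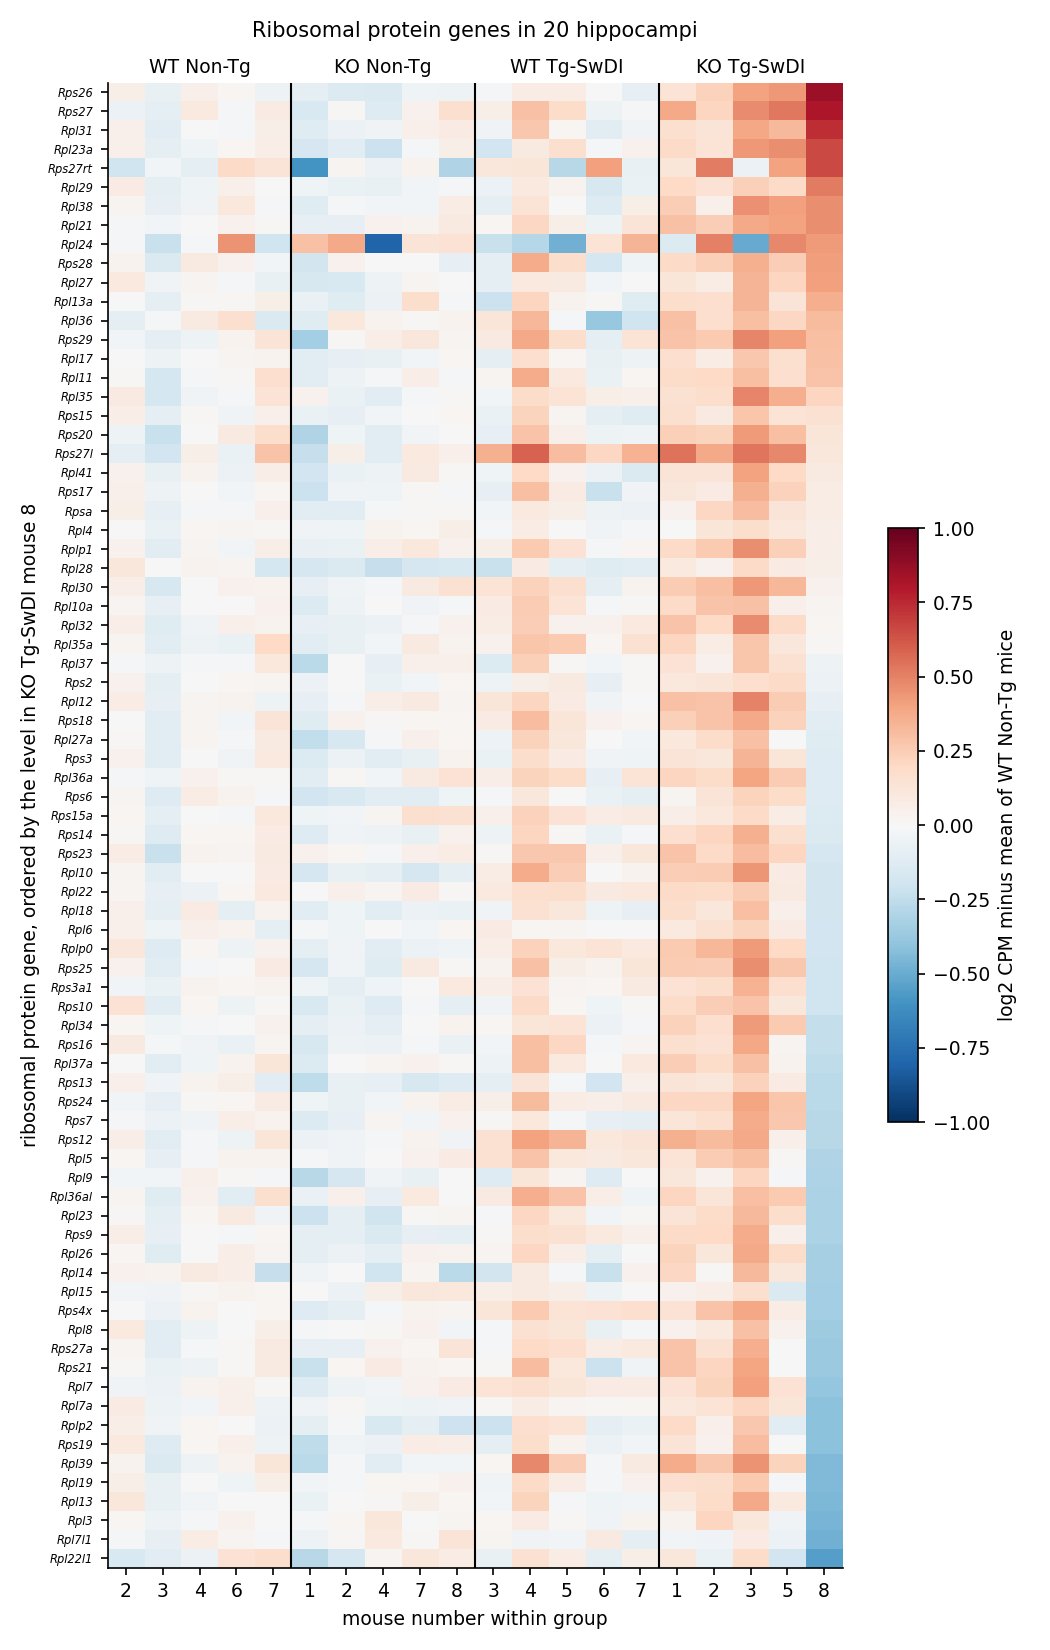
Log2 CPM of 78 measured ribosomal protein genes (rows) in 20 mice (columns, by group), as the difference from the mean of the WT Non-Tg mice, red for higher and blue for lower, cut at 1 log2 unit. Rows are ordered by KO Tg-SwDI mouse 8, the last column, where Rps26 and Rps27 are at the top and Rpl22l1 at the bottom, while KO Tg-SwDI mice 1, 2, 3 and 5 are higher in most rows, as is WT Tg-SwDI mouse 4.

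Within groups the genes varied together from mouse to mouse. Over the deviations of 20 libraries from their group means, 83.1% of the 3321 pairs of members had a correlation above 0, with a median r of 0.64. Over all pairs of the 16107 tested genes 49.97% were above 0. Without mouse 8 the shares were 95.2% of the members' pairs, with a median r of 0.61, and 49.8% of all pairs. Rps14 and Rps3 followed the mean of the members most closely (r = 0.96 and 0.95). Rps26 (r = −0.34) and Rpl29 (−0.08), which were high in mouse 8, did not follow it, nor did Rpl24 (−0.36) with its few counts. The points share library depth and composition, and no test was made on them.

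Loss of miR-34a in Tg-SwDI mice went with higher levels of 9 of 82 tested members and lower levels of none. Over all genes, 1.48% were called higher and 0.503% lower in this comparison. The 9 were 7 proteins of the large subunit, among them Rpl17, Rpl21, Rpl23a, Rpl29, Rpl31 and Rpl38, and 2 of the small one, Rps26 and Rps27. The median member was 0.09 higher on the log2 scale, against 0.00 for all tested genes, and 69 of 82 members had a positive difference.

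Rpl21, a large subunit protein, had the smallest adjusted p. It was at 266, 303, 273, 252 and 287 CPM in WT Tg-SwDI mice 3 to 7 and at 320.5, 309.8, 340.5, 346 and 361 CPM in KO Tg-SwDI mice 1, 2, 3, 5 and 8. No KO mouse fell into the WT range, and the log2 difference was 0.28 ± 0.05 (SE; edgeR quasi-likelihood adjusted p = 0.00677). Without mouse 8 it was 0.26 (adjusted p = 0.00837).

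Rps26, a small subunit protein that lies at the exit of the mRNA channel and contacts the message upstream of the start codon, had a larger difference with mouse 8 than without it. Its levels were 124, 132, 132, 126 and 118 CPM in WT Tg-SwDI mice and 138, 147, 166, 169 and 227 CPM in KO Tg-SwDI mice. The groups did not overlap, and mouse 8 was the highest. The log2 difference was 0.42 ± 0.09 (SE; edgeR adjusted p = 0.0145) with it and 0.30 ± 0.05 (SE; edgeR adjusted p = 0.0037) without it.

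Rpl29, a large subunit protein known for skeletal growth defects when lost in mice, also had groups that did not overlap. It was at 109 to 130 CPM in WT and 134 to 174 CPM in KO Tg-SwDI mice, a log2 difference of 0.29 (edgeR adjusted p = 0.0144), or 0.22 (adjusted p = 0.0142) without mouse 8. Of all members 4 had every KO mouse above every WT mouse, against 2.04% of all tested genes.

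Rpl38, Rps27, Rpl23a, Rpl17 and Rpl31 overlapped between groups. Rpl38, a large subunit protein known from mice with homeotic skeletal changes, was at 78.6 to 94.7 CPM in WT and 89.3 to 119 CPM in KO Tg-SwDI mice (log2 difference 0.34, edgeR adjusted p = 0.0106). Rps27 differed by 0.40 (edgeR adjusted p = 0.0229) and Rpl23a, which lies at the tunnel exit where nascent chains emerge, by 0.37 (edgeR adjusted p = 0.0215). Without mouse 8 these differences were 0.31 for Rpl38 (edgeR adjusted p = 0.017), 0.31 for Rps27 (adjusted p = 0.0358) and 0.29 for Rpl23a (adjusted p = 0.0384). For Rpl17 the log2 difference was 0.20 (edgeR adjusted p = 0.0409) and for Rpl31 0.34 (edgeR adjusted p = 0.0496), and both missed the threshold without mouse 8, with adjusted p of 0.0652 and 0.0733.

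Without mouse 8 the comparison called 11 members, all higher, of which 7 were among the 9, against 1.63% of all genes called higher. Added were Rps7 (0.25), Rpl12 (0.26), Rpl34 (0.23) and Rpl30 (0.23), in log2 units. Rps7, one of the 3 members with a match to the miR-34a seed, was at 157 to 180.5 CPM in WT Tg-SwDI mice, at 183, 187, 217 and 203 CPM in KO Tg-SwDI mice 1, 2, 3 and 5 and at 138 CPM in mouse 8. With all libraries its log2 difference was 0.16 (edgeR adjusted p = 0.262), while the other members with a match, Rpl13a and Rpl6, differed by 0.24 (adjusted p = 0.079) and 0.05 (adjusted p = 0.637). Without mouse 8 the SD of the members' log2 differences went from 0.12 to 0.07. The median went from 0.09 to 0.16, and 80 of 82 were positive. A smaller SD is what leaving out a library with a split among the members would give, so it is no separate result.

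Other settings gave other counts. When each library's trend of counts on mRNA length and GC content was removed, 4 members were called higher (Rpl21, Rpl23a, Rps26 and Rps27), against 0.714% of all genes, and the median member differed by 0.04. This removal, here and below, also shifts the scale of each library as a whole. When the Tg-SwDI mice were fitted alone, 0 members were called, against 0.351% of all genes higher, while the members' median stayed at 0.09. Leaving out WT Tg-SwDI mouse 3, 4, 6 or 7 gave 4, 16, 5 and 3 called members, against 0.611%, 1.04%, 0.925% and 0.376% of all genes higher. The members' medians in these fits were 0.08, 0.13, 0.08 and 0.09.

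**Figure D4:**
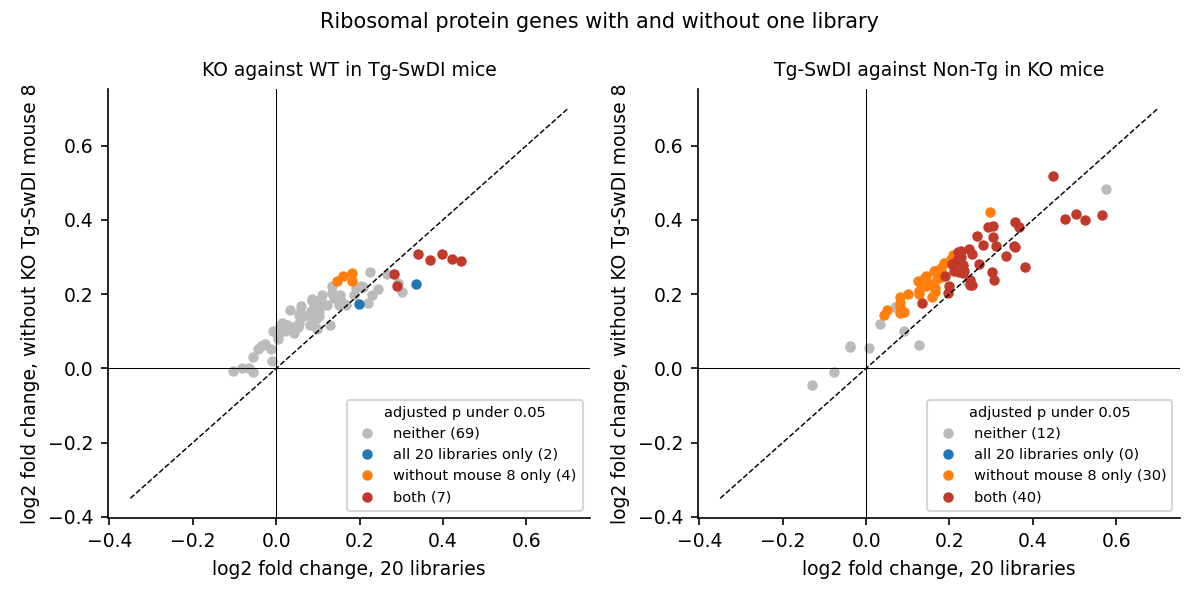
Log2 fold changes of the 82 tested ribosomal protein genes with all 20 libraries (horizontal) and without KO Tg-SwDI mouse 8 (vertical), for KO against WT in Tg-SwDI mice (left) and Tg-SwDI against Non-Tg in KO mice (right), coloured by where the adjusted p was under 0.05. Most points lie above the dashed line of equality, and 7 members on the left and 40 on the right were called both ways.

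In mice without the transgene the knockout showed no called member. None of the 82 passed the test, as none of the 16107 genes did (0% in either direction, with 1302 at an unadjusted p under 0.05), and 3 members had an unadjusted p under 0.05 by edgeR, all lower in KO, Rpl28 and Rps6 among them. DESeq2 and edgeR's exact test called 0 as well. The median log2 difference was −0.03, and 19 members were positive, while with the trend on length and GC content removed the median was 0.02, as it was for all genes, and 56 were positive. Rpl28, a large subunit protein, was at 137, 126, 130.1, 129 and 113 CPM in WT and 113, 115, 108, 113 and 114 CPM in KO Non-Tg mice. The log2 difference was −0.18 ± 0.05 (SE; edgeR adjusted p = 0.508), with the WT mouse at 113 inside the KO range.

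The effect of the knockout differed between Tg-SwDI and Non-Tg mice for that gene. In Tg-SwDI mice Rpl28 was at 109, 134, 119, 116 and 118 CPM in WT and at 136, 131, 145, 134 and 132 CPM in KO mice. There the KO group was higher by 0.19 on the log2 scale (edgeR adjusted p = 0.0624), with 1 WT mouse inside its range. The interaction was 0.36 ± 0.08 (SE; edgeR adjusted p = 0.0221). Rpl28 was the only member called in this test, against 0.428% of all genes higher and 0.18% lower, and the median member had an interaction of 0.15. Rps26 (0.52, adjusted p = 0.0505) and Rpl23a (0.45, adjusted p = 0.0607) had larger estimates that missed the threshold, as Rpl23a did without mouse 8 (0.38, adjusted p = 0.0609).

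Without mouse 8 the interaction was called for 8 members, against 0.955% of all genes higher. Among them were Rps26, Rpl28, Rpl29, Rps6, Rpl34, Rps7 and Rps13, all with a positive sign and log2 values of 0.27 to 0.39. Rps6, the target of the S6 kinases and a classical readout of mTOR activity at the protein level, had an interaction of 0.28 without mouse 8 (edgeR adjusted p = 0.0445) and 0.22 with it (adjusted p = 0.162). With the trend on length and GC content removed, 0 members were called with or without mouse 8. Single libraries decided whether Rpl28 and others passed: 0 to 10 members were called when each was left out in turn, 0 without WT Non-Tg mouse 2 or 4, KO Non-Tg mouse 4 or 7, or WT Tg-SwDI mouse 3 or 7, 3 without WT Non-Tg mouse 3 or KO Tg-SwDI mouse 1, 5 without WT Tg-SwDI mouse 4, and 10 without KO Tg-SwDI mouse 2.

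More members differed between Tg-SwDI and Non-Tg mice of the KO genotype than in any of the other 4 comparisons. Of 82 members, 40 were higher in KO Tg-SwDI than in KO Non-Tg mice and none lower, against 12.5% of all genes called higher and 8.31% lower. The 40 were 21 of 49 large subunit and 19 of 33 small subunit members. The median over all 82 was 0.20, against 0.00 for all tested genes, and 78 were positive. This comparison shares the KO Tg-SwDI mice with the one above, so the values of a gene in the 2 comparisons are not independent.

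Rps26 was at 118, 114, 114, 122 and 121 CPM in KO Non-Tg mice, all below the 138 to 227 CPM of KO Tg-SwDI mice, and the log2 difference was 0.52 ± 0.09 (SE; edgeR adjusted p = 0.000108), or 0.40 (adjusted p = 3.06e-06) without mouse 8. For Rps27, at 102 to 126 CPM in KO Non-Tg and 131 to 198 CPM in KO Tg-SwDI mice, it was 0.50 ± 0.09 (SE; edgeR adjusted p = 0.000224), or 0.42 (adjusted p = 0.000414) without mouse 8. Rpl21, at 247 to 279 CPM there, differed by 0.35 ± 0.05 (SE; edgeR adjusted p = 1.44e-05), the smallest adjusted p of the members with all libraries, and by 0.33 (adjusted p = 2.65e-05) without mouse 8. In 23 members every KO Tg-SwDI mouse was above every KO Non-Tg mouse, against 8.47% of all tested genes.

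The stalk proteins, which bind translation factors at the side of the large subunit, did not all pass. Rplp0, the base of the stalk, was at 181, 188, 178, 185 and 187 CPM in KO Non-Tg and at 232, 243, 259.9, 222 and 169 CPM in KO Tg-SwDI mice. The first 4 were above every Non-Tg mouse and mouse 8 was below them all. The log2 difference was 0.29 (edgeR adjusted p = 0.00623), and 0.38 (adjusted p = 2.28e-06) without mouse 8. Rplp1 was 0.23 higher (edgeR adjusted p = 0.00997), or 0.28 (adjusted p = 0.00132) without mouse 8. Rplp2, its partner, differed by 0.13 (adjusted p = 0.331), or 0.23 (adjusted p = 0.0328) without mouse 8.

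Among members known from roles outside the ribosome, Rpsa, which also occurs as a laminin receptor, was at 335 to 367 CPM in KO Non-Tg and 375 to 451 CPM in KO Tg-SwDI mice, a log2 difference of 0.20 (edgeR adjusted p = 0.00794). Rpl11, which with Rpl5 and 5S RNA holds back the p53 inhibitor Mdm2 when ribosome assembly fails, was at 115 to 130 and 139 to 152 CPM, a difference of 0.25 (edgeR adjusted p = 0.00853). Without mouse 8 Rpsa differed by 0.22 (edgeR adjusted p = 0.00283) and Rpl11 by 0.24 (adjusted p = 0.0192). Rpl5, the partner of Rpl11, did not pass, at 0.08 (adjusted p = 0.479), or 0.17 (adjusted p = 0.0237) without mouse 8. Rps6 was at 112 to 124 CPM in KO Non-Tg and 117 to 149 CPM in KO Tg-SwDI mice, a difference of 0.21 (edgeR adjusted p = 0.0111), or 0.26 (adjusted p = 0.000415) without mouse 8.

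The paralogue Rps27l was at 4.40 to 5.57 CPM in KO Non-Tg and 5.62 to 7.57 CPM in KO Tg-SwDI mice, a log2 difference of 0.45 ± 0.11 (SE; edgeR adjusted p = 0.00469), on 91 to 166 counts per library. Rpl22l1 (−0.04), Rpl36al (0.13) and Rpl7l1 (−0.13) had adjusted p of 0.84, 0.336 and 0.216. Without mouse 8 Rpl36al was called at 0.23 (edgeR adjusted p = 0.0356). Rps27rt differed by 0.58 on 7 to 17 counts per library, with an adjusted p of 0.0987.

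Without mouse 8, 70 of 82 members were called higher and none lower, against 11.7% of all genes called higher, and the median rose to 0.26. These included all 40 called with it. In 59 members the 4 remaining KO Tg-SwDI mice were all above the 5 KO Non-Tg mice, against 10.4% of all tested genes. Rpl34, a large subunit protein, shows the pattern: 73.5, 75.0, 73.5, 77.9 and 79.96 CPM in KO Non-Tg mice and 91.7, 87.8, 105, 93.5 and 66.4 CPM in KO Tg-SwDI mice. Its log2 difference was 0.23 (edgeR adjusted p = 0.0322) with mouse 8 and 0.32 (adjusted p = 3.94e-05) without it. The largest differences called without it were those of Rps27l, at 0.52, and Rpl39, a short protein of the exit tunnel, at 0.42.

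The 12 tested members that were not called without mouse 8 were Rpl3, Rpl4, Rpl8, Rpl15, Rpl22l1, Rpl24, Rpl36, Rpl7l1, Rps15a, Rps19, Rps21 and Rps27rt. Rpl3, which helps shape the peptidyl transferase centre, was at 349 to 383 CPM in KO Non-Tg mice and at 363, 410.2, 383, 345 and 257 CPM in KO Tg-SwDI mice, with mouse 8 the lowest. Its log2 difference was −0.04 (edgeR adjusted p = 0.765) with mouse 8 and 0.06 (adjusted p = 0.403) without it.

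With the trend on length and GC content removed, 9 members were called higher and 3 lower (Rpl3, Rpl15 and Rpl7l1), against 9.23% and 20.8% of all genes, and the members' median was 0.03 while that of all genes was −0.09. The removal also shifted the scale between libraries. How much of the change in calls came from that shift, and how much from length and GC content, was not tested. Among the 9 were Rpl21, Rpl23a, Rpl31, Rpl38, Rps20, Rps26, Rps27 and Rps27l. With that trend removed and mouse 8 left out, 19 were higher and 2 lower, against 8.84% and 21% of all genes, and the medians were 0.09 for the members and −0.09 for all genes. Length of the members' mRNAs was weakly related to the log2 differences themselves (Spearman rho −0.30 over 82 genes, a description without a test).

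**Figure D5:**
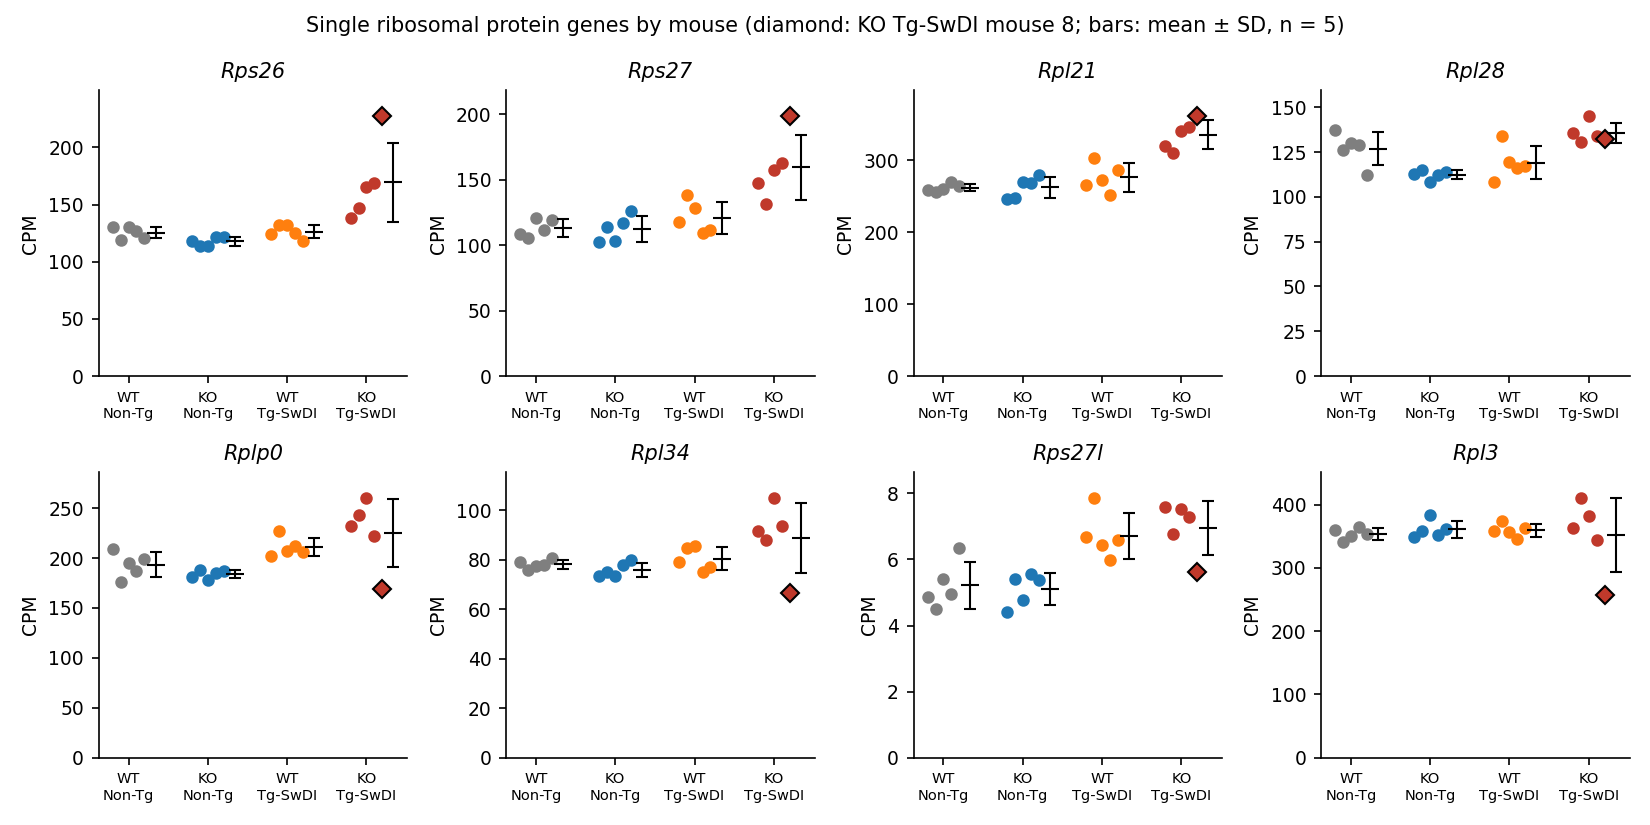
CPM of 8 ribosomal protein genes in each of the 20 mice, by group, with mean ± SD (n = 5) beside the points, vertical axes from 0, and KO Tg-SwDI mouse 8 as a diamond. Mouse 8 is the highest of all mice for Rps26 (227 CPM), Rps27 (198) and Rpl21 (361), and the lowest of its group for Rplp0 (169), Rpl34 (66.4), Rps27l (5.62) and Rpl3 (257).

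In WT mice the transgene changed no member past the threshold. Of 82, 0 were called, against 3.94% of all genes higher and 0.466% lower, and 5 had an unadjusted p under 0.05 by edgeR, as 2448 of all 16107 genes did. DESeq2 and the exact test called 0 of the members. The median log2 difference was 0.04, with 66 members positive. With the trend on length and GC content removed, 42 were positive and the median was 0.00, against −0.05 for all genes. Rps27l came nearest, at 4.87, 4.51, 5.40, 4.95 and 6.35 CPM in WT Non-Tg and 6.67, 7.85, 6.43, 5.99 and 6.60 CPM in WT Tg-SwDI mice. Only WT Non-Tg mouse 7 reached into the Tg-SwDI range, and the log2 difference was 0.36 ± 0.11 (SE; edgeR adjusted p = 0.0614), beside 0.45 in KO mice. Without KO Tg-SwDI mouse 8, which enters this comparison only through the shared estimate of spread, 3 members were called higher, Rps12 (0.23), Rps27l (0.36) and Rps4x (0.17), against 4.73% of all genes. Without WT Non-Tg mouse 7, 1 was called.

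The subunits were also summarised apart. In KO mice the median log2 difference between Tg-SwDI and Non-Tg was 0.18 for the large and 0.21 for the small subunit, or 0.24 and 0.27 without mouse 8. For KO against WT in Tg-SwDI mice the medians were 0.09 and 0.10, or 0.15 and 0.16. No test of a difference between subunits was made.

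Fau and Rack1 encode ribosomal proteins under other names and were read beside the members. Fau, which is made as a fusion with a ubiquitin-like protein, was higher by 0.28 in KO Tg-SwDI than in KO Non-Tg mice on the log2 scale (edgeR adjusted p = 0.00151). Rack1, a scaffold on the small subunit, differed by 0.16 (edgeR adjusted p = 0.0672). Without mouse 8 both were called, Fau at 0.31 (edgeR adjusted p = 0.000287) and Rack1 at 0.23 (adjusted p = 0.00356). With all libraries neither was called in any other comparison.

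Other lists of the translation machinery were read against the same shares of all genes. For KO against WT in Tg-SwDI mice, none of 36 initiation factors, 8 elongation factors, 30 ribosome assembly genes, 77 mitochondrial ribosomal proteins and 16 genes of the mTOR and S6 kinase pathway was called, with or without mouse 8, where 1.48% of all genes were called higher. Between Tg-SwDI and Non-Tg in KO mice, where 12.5% of all genes were higher and 8.31% lower, 2 initiation factors were higher (Eif3k and Eif5a) and 2 lower (Eif1ax and Eif4a2), with a list median of −0.02. Of the elongation factors Eef1a1, a TOP message like the members, was higher by 0.17 (edgeR adjusted p = 0.0296), or 0.21 (adjusted p = 0.00392) without mouse 8. Of the assembly genes 2 were higher and 4 (13.3%) lower (median −0.07), the latter Wdr12, Rrp12, Utp18 and Ubtf, the last a factor of ribosomal RNA transcription. Of 77 mitochondrial ribosomal protein genes 6 were higher and 1 lower (median 0.01). Without mouse 8 the counts higher and lower were 1 and 2 for initiation factors, 1 and 1 for assembly genes, with Wdr12, Rrp12 and Ubtf not called, and 3 and 0 for mitochondrial ribosomal proteins.

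In the mTOR and S6 kinase list 2 genes were higher and 2 lower in KO Tg-SwDI than in KO Non-Tg mice, 12.5% in each direction, which is near the shares of all genes. Eif4ebp1, the translational repressor that mTOR phosphorylates, was higher by 0.57 (edgeR adjusted p = 0.000679) and the kinase Rps6ka1 by 0.54 (adjusted p = 1.79e-06). Tsc1, a brake on mTOR, was lower by a log2 difference of −0.21 (edgeR adjusted p = 0.00869) and the S6 kinase Rps6kb1 by −0.16 (adjusted p = 0.0339). Without mouse 8 the first 3 were still called and Rps6kb1 was not (−0.14, edgeR adjusted p = 0.0616).

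Markers of cell types also differed between groups, including between Tg-SwDI and Non-Tg mice of the WT genotype. In that comparison 0 of 82 members were called, and 66 had a positive difference. In both genotypes Tg-SwDI mice had all 14 microglia markers called higher. Their summed level was 528 to 715 CPM in WT Non-Tg, 524 to 568 in KO Non-Tg, 1184 to 1435 in WT Tg-SwDI and 1542 to 1937 CPM in KO Tg-SwDI mice. For KO against WT in Tg-SwDI mice 6 of these 14, and 9 of 14 markers of activated microglia, were called higher, and without mouse 8 it was 8 of 14 in each list.

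Oligodendrocyte markers had 5 of 10 called higher in KO Tg-SwDI than in KO Non-Tg mice, with or without mouse 8, 1 of 10 in the WT comparison and 0 of 10 for KO against WT in Tg-SwDI mice. For KO against WT in Non-Tg mice all 10 had a negative difference, none past the threshold, and the median interaction was 0.15, beside 0.15 for the members. Their summed level was 5999.7 to 6803 CPM in WT Non-Tg, 5099 to 6138 in KO Non-Tg, 6672 to 7058 in WT Tg-SwDI and 6196 to 8203 CPM in KO Tg-SwDI mice. Astrocyte markers had 6 of 10 called higher between Tg-SwDI and Non-Tg mice in each genotype, and 1 of 10 for KO against WT in Tg-SwDI mice. Without mouse 8 it was 8 in KO and 7 in WT mice and 0 for KO against WT. Their summed level was 5025 to 5403 CPM in WT Non-Tg, 5222 to 5579.8 in KO Non-Tg, 6332 to 7234 in WT Tg-SwDI and 6705 to 8286 CPM in KO Tg-SwDI mice. Of 10 neuron markers 2 were lower in KO Tg-SwDI than in KO Non-Tg mice. Other median interactions were 0.49 for microglia, 0.76 for activated microglia, 0.07 for astrocyte, 0.10 for endothelium and −0.01 for neuron markers. The interaction was called for 3 of 14 microglia and 5 of 14 activated microglia markers, or 8 and 7 without mouse 8. The part of microglia, oligodendrocytes, astrocytes and neurons in the members' levels was not tested.

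Choroid plexus RNA was low in all KO Non-Tg mice and differed widely between the libraries of each other group. The summed level of 15 markers was 310 to 6958 CPM in WT Non-Tg, 273 to 734 in KO Non-Tg, 407 to 5825 in WT Tg-SwDI and 422 to 5689 CPM in KO Tg-SwDI mice. Between Tg-SwDI and Non-Tg in KO mice 13 of the 15 were called higher, or 6 without mouse 8. With the choroid plexus level as a covariate, 14 members were called higher in that comparison, against 6.49% of all genes, and their median was 0.18. For KO against WT in Tg-SwDI mice 10 were called with it, against 2.39% of all genes higher, and the interaction was called by edgeR for 0 members (17 had an unadjusted p under 0.05) and for 18 of all genes. With the level of mitochondrially encoded mRNA as a covariate, chosen after the data were seen, 4 members were called for KO against WT in Tg-SwDI mice, against 1.2% of all genes higher, with a median of 0.17. For Tg-SwDI against Non-Tg in KO mice 63 were called, against 10.3% of all genes, with a median of 0.27. KO Tg-SwDI mouse 8 lies far above all other mice in this covariate. The fits with it are therefore no separate support for the results without that mouse.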

How the data were processed

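The deposited values were raw read counts per ENSEMBL gene for 20 hippocampal libraries. The authors sequenced stranded mRNA libraries, aligned reads to mm10 with STAR and counted them with FeatureCounts, without normalization. Versions, the strand setting and the treatment of reads matching several genes are not given in the sources used here. Identifiers were matched without version to GENCODE M21 (38872 of 39056).

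Counts were fitted with edgeR 4.0.16 in R 4.3.3 (TMM, filterByExpr by group with a minimum count of 10 and a minimum total of 15, robust quasi-likelihood, 1 mean per group, 16 residual degrees of freedom), and 5 contrasts were taken, with Benjamini-Hochberg adjustment over 16107 genes. Log2 CPM used a prior count of 2. Per-length levels used the shortest principal transcript. Trends on length and GC content were removed as offsets (splines with 5 degrees of freedom). The fitted trend included a constant for each library, so its removal also shifted the scale between libraries that TMM had set. Scripts were tested on simulated data. Figures were drawn with Python 3.11.15.

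Named genes were members called (up to 8 per contrast and direction), the 5 largest differences per contrast, the 5 highest and lowest per length, the stalk genes, Rpsa, Rps6, Rpl5, Rpl11, paralogues, members below the minimum, Fau and Rack1. Up to 4 called genes were taken from each other list. Rpl34, Rps7, Rpl12, Rpl30, Rpl39, Rps10, Rps3, Rps14, members in the results without KO Tg-SwDI mouse 8 and those that set it apart were named after their values were seen. Some genes that meet the rule are counted but not reported here by name. The members and lists were chosen with earlier results of these data known. The choice to print results without KO Tg-SwDI mouse 8 was made after the data were seen.

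Alternatives were DESeq2 1.42.0, edgeR's exact and likelihood ratio tests, RLE factors, library size alone, TMM without the members, no filter, a mean CPM of at least 1, the compared groups alone, a replicate block, a choroid plexus covariate, the trend removal and each library left out. A further 3 were chosen once the data had been seen: a covariate of mitochondrially encoded mRNA, the removal of those counts, and mouse 8 left out together with the trend. Reads are not independent molecules, and the depth of 19549622 to 21066868 counts leaves members with few counts imprecise. No 2 of the libraries agreed within sampling noise (190 pairs, lowest chi-square per gene 2.39).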

Additional observations from a re-analysis of the deposited data

Results flagged for a closer look

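Groups of 5 mice were searched for a mouse whose gap to the next, divided by the range of its group, exceeded Dixon's critical value of 0.71, in the summed level and in 18 members, 76 groups in all. Chance flags about 1 in 20 such groups, and 2 were flagged. WT Non-Tg mouse 3 was low in the summed CPM of the ribosomal protein genes (ratio 0.783), and KO Tg-SwDI mouse 8 was high in Rpl29 (0.778). Rpl28 differed between Tg-SwDI and Non-Tg mice in its response to the knockout, with an interaction of 0.36 on the log2 scale. It was not called with the trend on length and GC content removed or with the choroid plexus covariate. Leaving out any of several single mice also lost the call.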

How the results depend on the processing

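The number of ribosomal protein genes called depended on the setting in each comparison but KO against WT in Non-Tg mice, where it was 0 under every alternative run. For KO against WT in Tg-SwDI mice (9 called) it was 0 with the compared groups alone and 0 with the replicate block, 4 with the trend on length and GC content removed and 4 with the mitochondrial covariate, and it ranged from 3 to 16 when each library was left out. For Tg-SwDI against Non-Tg in KO mice (40 called) it was 12 with the trend removed, 21 with the trend removed and KO Tg-SwDI mouse 8 left out, 14 with the choroid plexus covariate, 26 with library size alone and 63 with the mitochondrial covariate, and 29 to 70 when each library was left out. For Tg-SwDI against Non-Tg in WT mice (0 called) it was 1 with a mean CPM of at least 1, 2 with the compared groups alone, 2 with the mitochondrial covariate, 1 with mouse 8 and the trend removed, and 0 to 3 when each library was left out. The interaction (1 called) gave 9 with DESeq2, 6 with the likelihood ratio test, 3 without a filter, 2 with the mitochondrial covariate, 0 with the choroid plexus covariate, 0 with the trend removed and 0 with mouse 8 also left out, and 0 to 10 when each library was left out. The interaction has no fit with the compared groups alone. Counts in this section stand without the share of all genes called under each setting, so they cannot be read as particular to the members. The same holds above for the interaction with single libraries other than KO Tg-SwDI mouse 8 left out. Rps2 changed sign for Tg-SwDI against Non-Tg in KO mice, to −0.060 with the trend removed and −0.016 with mouse 8 also left out. In both fits the median of all genes was −0.09, so Rps2 lay above it. Otherwise the cause of these changes was not tested. Of 169 counts 131 stayed within 1.5 times the reported one. The 131 include every count that was 0 in both fits, as in all settings of KO against WT in Non-Tg mice. Of 2235 values of members called or among the 5 largest differences of a comparison, 1944 kept direction and call, 261 lost the call, 28 gained it and 2 reversed.

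Replicate numbers showed little sign of pairing the mice, though correlations of this kind cannot exclude shared litters or days. Of 16 same-numbered pairs 2 had correlated deviations above 0.1 (median r −0.04), and 1 of 20 libraries correlated best with its own number. With the replicate block 32 members were called for Tg-SwDI against Non-Tg in KO mice, and 0 for KO against WT in Tg-SwDI mice. Depth limits the members with few counts, Rpl24 and Rps27rt above all.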
